A study of Rattus norvegicus with 10 samples.

Results

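The genes described here code for the matrix metalloproteases (MMPs), the ADAM and ADAMTS proteases, the ADAMTS-like proteins, the tissue inhibitors of metalloproteases (TIMPs) and the serpins. They were chosen by symbol alone, as the genes of the deposited rat gene table whose symbol begins with Mmp, Adam, Adamts, Timp or Serpin followed by the number or letter of a family member. This gave 70 genes out of 16129 in that table, and 23487 genes were counted in all. The 70 comprised 13 MMP, 13 ADAM, 17 ADAMTS, 4 ADAMTS-like, 4 TIMP and 19 serpin genes. The symbol Mmp11 was carried by 2 gene IDs (ENSRNOG00000054959 and ENSRNOG00000028344), between which counting could split reads, so values for either are uncertain.

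RNA was sequenced from primary oligodendrocyte progenitor cells (OPCs) of newborn Sprague-Dawley rat cortex and from oligodendrocytes (OLs) derived from such cells in culture. The progenitors had been shaken off mixed glial cultures. Every culture was transfected at 30 nM. OPCs received an inhibitor of miR-145 (OPC anti-miR-145) or a control inhibitor (OPC anti-miR-ctl) and were collected after 24 h. Differentiating OLs received a miR-145 mimic (OL miR-145), miR-145 and miR-219 mimics together (OL miR-145+miR-219) or a scrambled control (OL miR-ctl) and were collected after 5 days, the stage called DD5. The OPC medium held the growth factors FGF2 and PDGF-AA, and the OL medium thyroid hormone (T3) and CNTF. Each of the 5 groups had 2 libraries. The study's reporting form describes a replicate of primary cells as cultures from an individual mouse and does not define a replicate of rat cells. Whether a number stands for the same culture in different groups is not given there. A treatment tag of the OL miR-145 libraries also names miR-219, whereas their titles name miR-145 alone, and they were grouped by title.

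MMPs, ADAMs and ADAMTSs are zinc-dependent proteases that cut matrix proteins or release membrane-bound proteins. TIMPs bind and block them, and most serpins trap serine proteases such as the plasminogen activators, whose product plasmin can in turn activate MMP precursors. In the oligodendrocyte lineage such proteases are known for clearing matrix around migrating progenitors and extending processes and for cutting the lecticans, chondroitin sulfate proteoglycans that restrain progenitors in lesions. The agents were mimics or inhibitors of 2 microRNAs, whose mature rat sequences (RefSeq, GRCr8) are shown because the treatments were designed to raise or block them. Capitals mark the seed, bases 2 to 8, and the seeds differ.
rno-miR-145-5p: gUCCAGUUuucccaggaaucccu
rno-miR-219a-5p: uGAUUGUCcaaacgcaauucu
The first lies on the minus strand at chr18:57370033-57370055 and the second on the minus strand at chr3:33516561-33516581. Whether the transcripts of these genes carry sites for either was not analysed here.

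The counts were estimated per gene, without normalization, and summed to between 33505706 and 42684206 per library. Levels are given below as CPM, which are counts scaled to a common library total, here after TMM scaling over all 10 libraries. They are not divided by transcript length, so they compare a gene between libraries and not genes with each other. Stage markers followed the labels. Pdgfra, a progenitor receptor, stood at 903 and 907 CPM in OPC anti-miR-ctl and at 265 and 186 CPM in OL miR-ctl, and Mbp, a compact myelin protein, stood at 248 and 279 CPM against 6218 and 13122 CPM. The cultures were not pure. The summed level of 7 astrocyte markers was 5344 to 6345 CPM in the OL miR-ctl libraries and 624 to 655 CPM in OPC anti-miR-ctl, and 9 microglial markers summed to 373 to 561 and 923 to 982 CPM. In bulk RNA, fewer cells of a type and less RNA per cell cannot be told apart.

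The protease and inhibitor genes took 0.421% to 0.454% of the counts in the 4 OPC libraries and 0.288% to 0.311% in the 6 OL libraries. A few genes carried much of this, in counts not divided by transcript length. Mmp15, a membrane-anchored MMP, held 28.9% to 35.1% of the counts of these genes in OPCs and 3.97% to 7.14% in OLs. Serpine2, also called protease nexin-1, an inhibitor of thrombin and the plasminogen activators, held 23.2% to 23.8% in OPCs and 13.5% to 19.4% in OLs. Adam11, which lacks protease activity, held 0.181% to 0.525% in OPCs and 11.1% to 24.5% in OLs. Adamts4 held 2.26% to 5.03% in OPCs and 8.13% to 22.8% in OLs. The plot of levels in all libraries shows 20 of these genes.

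**Figure D1:**
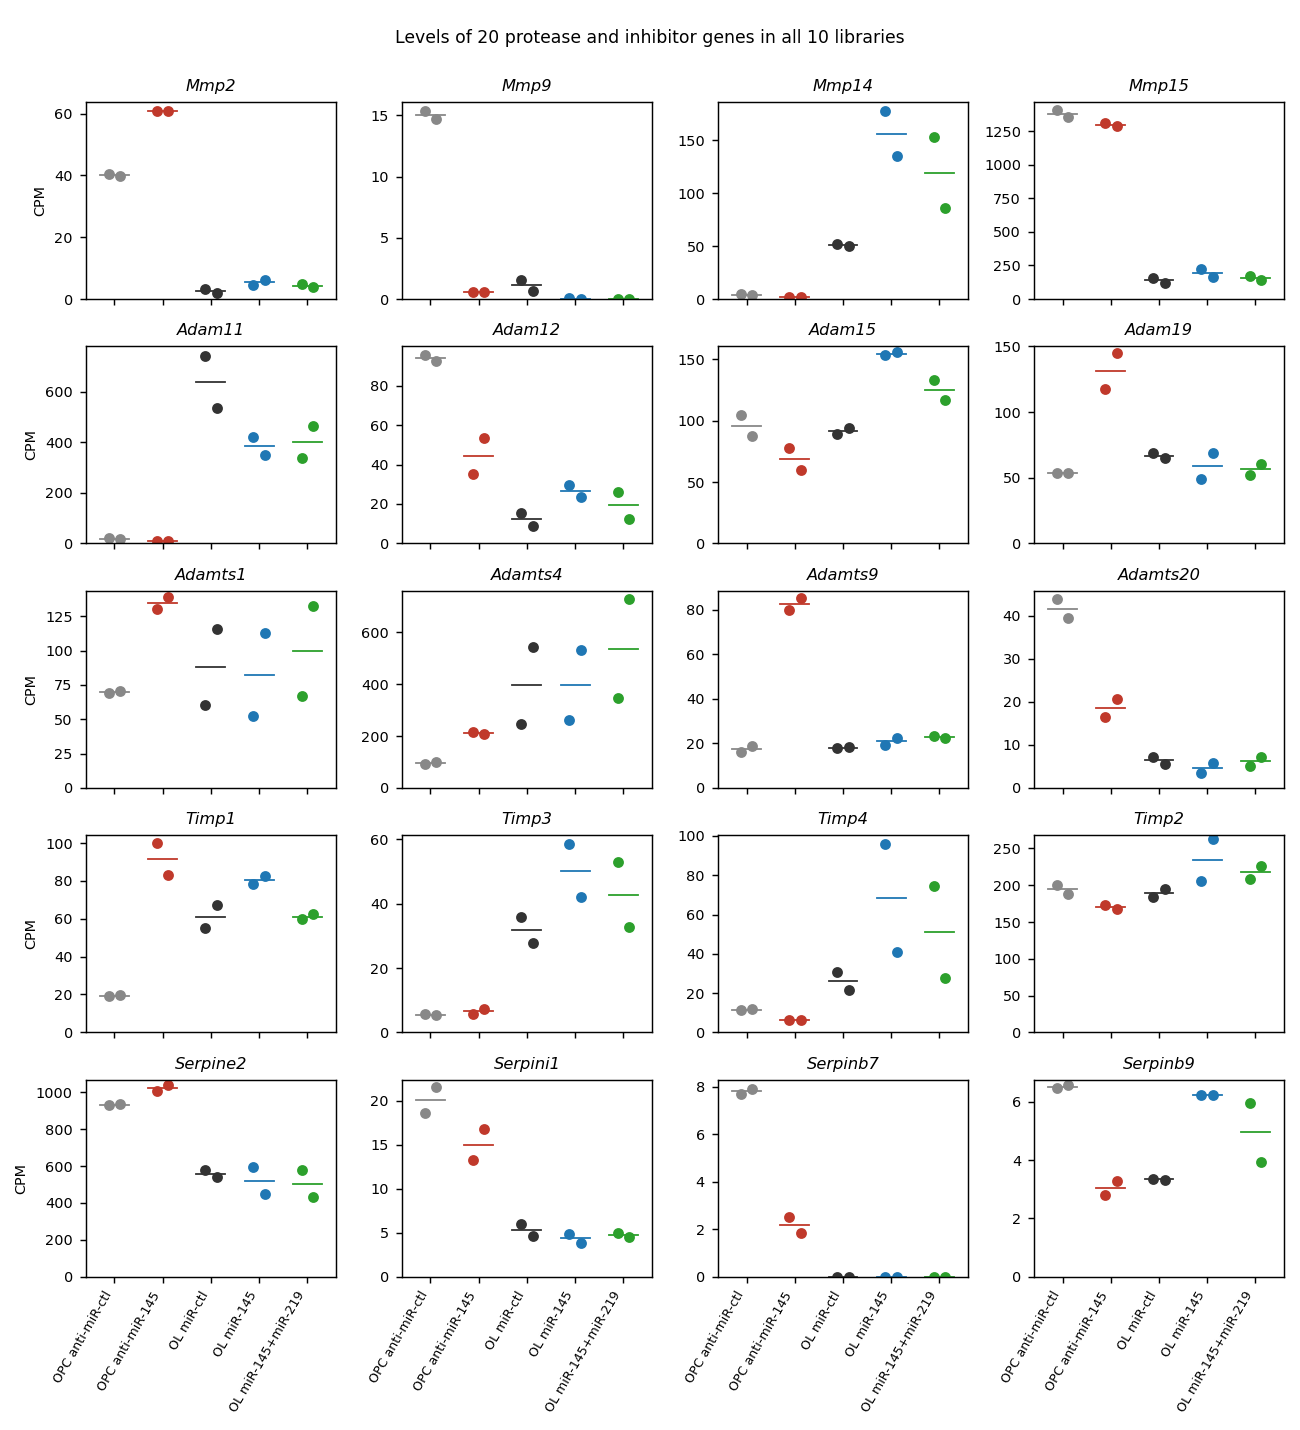
CPM (linear axis from 0, TMM-scaled over all 10 libraries) of 20 protease and inhibitor genes in the 5 groups; each point is a library and each bar the mean of 2. Mmp15, Mmp2, Mmp9, Adam12 and Adamts20 sat high in both OPC groups or in OPC anti-miR-ctl and low in OLs, Adam11, Mmp14 and Timp3 sat high in OLs, and Adamts9 and Timp1 stood apart in OPC anti-miR-145.

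Differentiation was examined first, by comparing the controls of both stages, OL miR-ctl and OPC anti-miR-ctl. The OLs had lower levels of most MMPs, including the gelatinase Mmp2 and the membrane-type Mmp15 and Mmp16, and higher levels of Mmp14, Mmp19, several ADAMTSs and 3 of the 4 TIMPs. A gene entered the edgeR quasi-likelihood test if 2 or more of the 4 libraries held 5 or more counts of it, and was called if its adjusted p (Benjamini-Hochberg, over all genes tested) fell under 0.05. Of 15721 genes tested, 57.5% were called, 28.8% higher in OLs and 28.7% lower. Of the 67 protease and inhibitor genes tested, 45 were called (67.2%), 25 higher and 20 lower. Adamts19, Serpina11 and Serpine3 had too few counts to be tested. A gene that met the count filter through a single group is higher in that group by selection. This held for Serpinb7, Serpinb2, Serpinb3a, Mmp13 and Mmp11 on ENSRNOG00000028344 in the OPCs, and for Adamts16 and Adam33 in the OLs. The median log2 fold change of the 67 was 0.17, also with 4 genes at 0 counts in a group set to their bounds, and that of all genes tested was 0.01. These groups also differ in time after transfection and in the kind of control oligonucleotide, so stage cannot be told apart from either.

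Of the 13 MMPs, 3 were called higher in OLs and 8 lower, and their median log2 fold change was -1.87. The 8 include Mmp13 and Mmp11 on ENSRNOG00000028344, which were tested through the OPC libraries alone and are lower in OLs by selection. Mmp15 read 1405 and 1354 CPM in OPC anti-miR-ctl and 157 and 120 CPM in OL miR-ctl, without overlap (log2 fold change -3.33, SE 0.15, adjusted p = 9.11e-05). Mmp16, also membrane-anchored, read 328 and 319 against 88.7 and 56.7 CPM (log2 fold change -2.17, SE 0.22, adjusted p = 0.000941). Both were several-fold lower in the OLs. Mmp2, which cuts denatured collagen and type IV collagen, read 40.4 and 39.7 CPM in the OPCs and 3.29 and 2.05 CPM in the OLs (log2 fold change -3.90, SE 0.22, adjusted p = 0.000155). Mmp9, the other gelatinase, read 15.3 and 14.7 against 1.56 and 0.674 CPM (log2 fold change -3.73, SE 0.35, adjusted p = 0.000758). Thus both gelatinases were lower in OL miR-ctl than in OPC anti-miR-ctl. The OL libraries differed from each other more than these OPC libraries did. In OPC anti-miR-145, Mmp9 was also low, at 0.578 and 0.598 CPM, whereas Mmp2 read 60.7 and 60.8 CPM. Mmp13, a collagenase, had 124 counts over the OPC libraries and 2 over the OL libraries, a ratio of 56.2 with a 95% counting interval of 15.2 to 470. Intervals of this kind cover counting error only. Mmp11, also known as stromelysin-3, read 58.1 and 66.5 against 16.5 and 17.9 CPM on ENSRNOG00000054959 (log2 fold change -1.87). Its other ID, ENSRNOG00000028344, had 402 counts in the OPCs and 0 in the OLs, at least 122-fold lower with 3 counts over the group as the floor.

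The membrane-type MMPs did not move together. Mmp14, which activates the Mmp2 precursor at the cell surface, read 4.48 and 3.45 CPM in OPC anti-miR-ctl and 52.1 and 50.3 CPM in OL miR-ctl (log2 fold change 3.67, SE 0.15, adjusted p = 6.87e-05). It was thus higher in the OLs while Mmp15 and Mmp16 were lower. The GPI-anchored Mmp17 was also called lower (log2 fold change -0.52), and Mmp24, another transmembrane MMP, had a log2 fold change of -0.58 that was not called (adjusted p = 0.0732). Mmp19 read 8.36 and 8.13 CPM in the OPCs and 63.9 and 54.4 CPM in the OLs (log2 fold change 2.83, SE 0.12, adjusted p = 7.09e-05). Mmp28 was the remaining MMP called higher (log2 fold change 1.25).

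Among the ADAMs, 4 of 13 were called higher and 2 lower. Adam11 belongs to a protease-inactive group with Adam22 and Adam23 whose members bind secreted LGI proteins. It read 21.0 and 17.3 CPM in OPC anti-miR-ctl and 743 and 537 CPM in OL miR-ctl, a 33-fold difference (log2 fold change 5.04, SE 0.22, adjusted p = 7.8e-05). Adam22 was lower in OLs (15.9 and 15.5 against 8.41 and 5.18 CPM, log2 fold change -1.22, adjusted p = 0.00918), and Adam23 was not called (log2 fold change -0.17, adjusted p = 0.16). The relatives of Adam11 therefore did not share its rise. Their LGI ligands, taken from a list of partners, were split as well, with Lgi3 (log2 fold change 5.66) and Lgi4 (2.48) higher and Lgi1 (-4.83) lower. Adam12, an active protease also known as meltrin alpha, read 95.6 and 92.7 against 15.6 and 8.71 CPM (log2 fold change -2.96, SE 0.27, adjusted p = 0.000709). Adam10, a widely expressed sheddase, read 144.6 and 143 CPM in the OPCs and 134 and 157 CPM in the OLs, and the groups overlapped (log2 fold change 0.00, SE 0.10, adjusted p = 0.98).

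The ADAMTSs were more often higher than lower in OLs, with 8 called higher and 3 lower among 16 tested. Adamts4 and Adamts5, the main aggrecanases, were both higher. Adamts4 read 90.5 and 98.6 CPM in the OPCs and 246 and 545 CPM in the OLs (log2 fold change 2.05, SE 0.38, adjusted p = 0.00723), and its OL libraries differed more than 2-fold from each other. Adamts5 read 3.02 and 2.16 against 13.2 and 21.5 CPM (log2 fold change 2.72, SE 0.31, adjusted p = 0.00141). Adamts1, which also cuts lecticans, overlapped between the groups (69.3 and 70.5 against 60.4 and 116 CPM). Adamts15 was called higher too (log2 fold change 3.75), and so was Adamts2, a procollagen N-propeptidase that read 0 and 0.137 CPM in the OPCs and 1.93 and 1.50 CPM in the OLs (log2 fold change 4.67, SE 0.85). The fold change of Adamts2 was 3.59 on the log2 scale without replicate 1 of OPC anti-miR-ctl, the library with no count of it, and without replicate 2 the OPCs had no count of it. Adamts16 had 0 counts in the OPCs and 14 in the OLs, at least 5.14-fold higher, and was not called without replicate 1 or replicate 2 of OPC anti-miR-ctl (adjusted p = 0.0654 and 0.0615). Adamts20, known for its part in melanoblast migration, read 43.8 and 39.4 against 7.23 and 5.67 CPM (log2 fold change -2.70, SE 0.15, adjusted p = 0.000151). Of the 4 ADAMTS-like genes, which have no protease domain, Adamtsl3, Adamtsl4 and Adamtsl5 were called higher (log2 fold changes 1.89, 2.33 and 1.95) and Adamtsl2 lower (-2.27).

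Of the inhibitors, Timp1, Timp3 and Timp4 were higher in OLs. Timp3, the TIMP that stays bound to matrix, read 5.75 and 5.34 CPM in OPC anti-miR-ctl and 35.7 and 27.7 CPM in OL miR-ctl (log2 fold change 2.50, SE 0.16, adjusted p = 0.000223). Timp1 read 19.0 and 19.8 against 55.0 and 67.0 CPM (log2 fold change 1.64, SE 0.12, adjusted p = 0.000372), and Timp4 read 11.3 and 11.9 against 30.6 and 21.7 CPM (log2 fold change 1.16, SE 0.18, adjusted p = 0.00435). Timp2, which also takes part in activating Mmp2, overlapped between groups (200 and 188 against 184 and 195 CPM).

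Among the 17 serpins tested, 4 were called higher and 6 lower. The 6 include Serpinb7, Serpinb2 and Serpinb3a, which were tested through the OPC libraries alone and are lower in OLs by selection. Serpine2 read 930 and 936 CPM in the OPCs and 578 and 539 CPM in the OLs (log2 fold change -0.75, SE 0.08, adjusted p = 0.0012). Serpini1, neuroserpin, an inhibitor of tissue plasminogen activator, read 18.7 and 21.5 against 5.95 and 4.69 CPM (log2 fold change -1.93, SE 0.17, adjusted p = 0.000578). The plasminogen activators Plat and Plau were called higher (log2 fold changes 2.30 and 2.93). Serpinb7 had 623 counts over the OPC libraries and 0 over the OL libraries, at least 188-fold lower. Serpinb2, plasminogen activator inhibitor 2, had 146 counts against 1, a ratio of 132 with a counting interval of 23.4 to 5266, and Serpinb3a had 19 against 0, at least 5.74-fold lower. Serping1, the C1 inhibitor, was higher (log2 fold change 3.50, SE 0.54), as were Serpinb1a, an inhibitor of neutrophil elastase (3.18, SE 0.39), Serpinf1 (2.07) and Serpinb6a (1.13).

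Companion genes came from a list of the plasminogen system, other protease inhibitors, activating convertases, surface partners and lecticans. Of 35 tested, 25 were called (71.4%, against 57.5% of all genes), 17 higher and 8 lower. All 4 lecticans were higher in OLs, namely Acan (log2 fold change 2.82), Ncan (1.99), Bcan (1.54) and Vcan (0.55). Cst3, cystatin C, was also higher (0.87). Of 7 astrocyte markers, 6 were higher in both OL libraries than in both OPC libraries. The groups did not overlap for 81.8% of all genes tested, with 6559 higher in OLs and 6304 lower. Of the 9 microglial markers 5 were higher and 4 lower (373 to 561 against 923 to 982 CPM in sum), and of 3 endothelial markers 1 was higher and 2 lower (14.8 to 20.5 against 10.9 to 11.4 CPM). Their part in the result was not tested. Fewer genes of the set were called with either replicate of OPC anti-miR-ctl left out, which leaves a single library in that group. Counts over all genes are not given here for these fits, so the fall cannot be read as a trait of the set. Mmp28 and Adamts12 were not called with DESeq2 or with all 5 groups in a single fit, and Adam19 and Timp4 were not called in that fit.

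**Figure D2:**
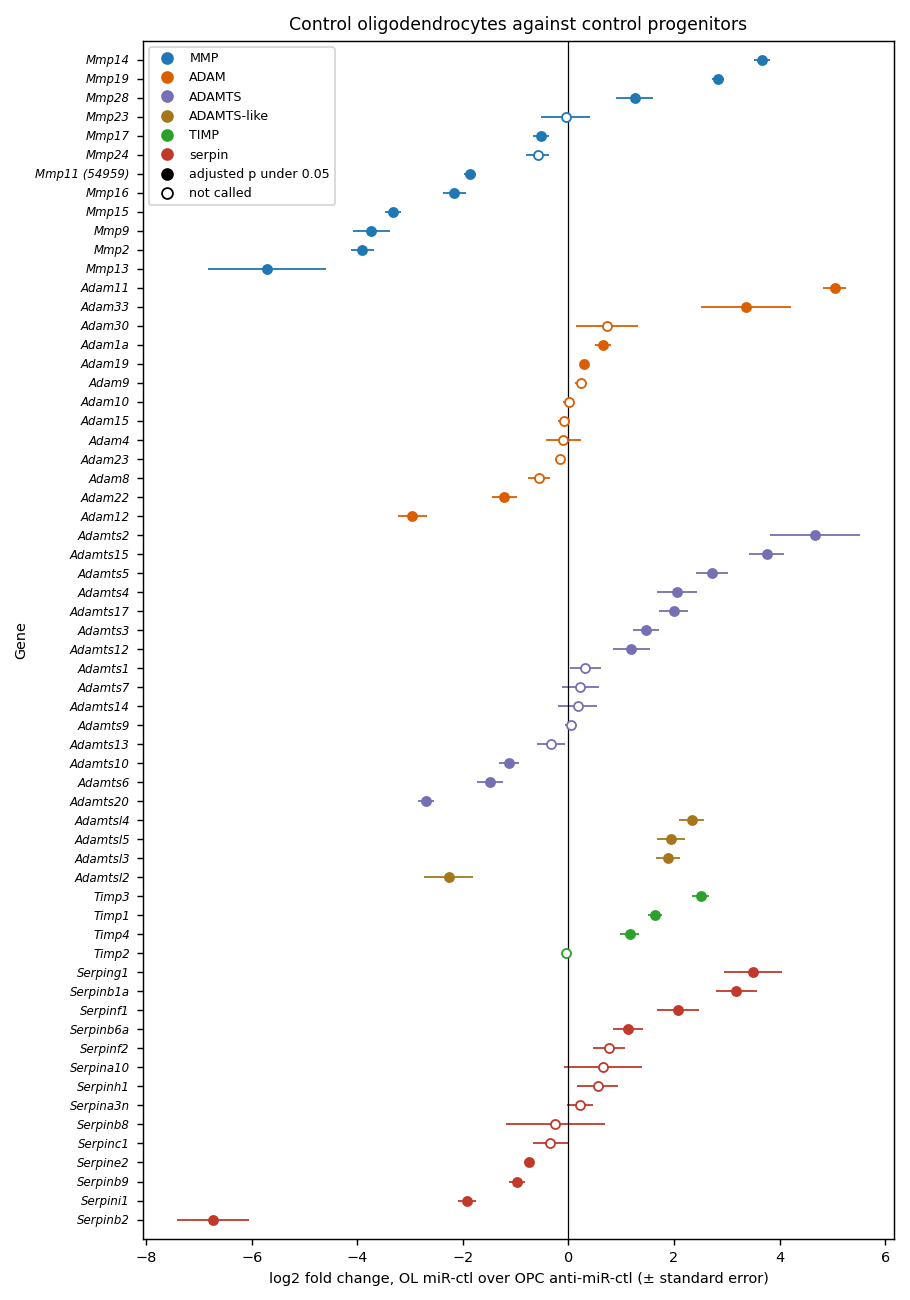
log2 fold change of OL miR-ctl over OPC anti-miR-ctl with its standard error for 62 genes, ordered within families; filled points were called, and 4 genes with 0 counts in a group are left out. MMPs spread from Mmp14 at 3.67 to Mmp13 at -5.71, and 3 of the 4 TIMPs lie above 0.

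The inhibitor of miR-145 was examined in OPCs next, by comparing OPC anti-miR-145 with OPC anti-miR-ctl 24 h after transfection. The OPC anti-miR-ctl libraries also entered the comparison with OL miR-ctl, so the results of both comparisons are not independent. The cells given the inhibitor had higher levels of Timp1, Adamts9, Adam19 and the urokinase system, and lower levels of Mmp9 and Mmp13. Serpins of the B group were mixed, with Serpinb7 and Serpinb9 lower and Serpinb1a higher. Of 15496 genes tested with edgeR, 28.1% were called, 12.1% higher and 16% lower. Of the 65 protease and inhibitor genes tested, 29 were called (44.6%), 11 higher and 18 lower. The median log2 fold change of the 65 was -0.08, and that of all genes tested was 0.00. Adam33, Adamts16, Adamts19, Serpina11 and Serpine3 had too few counts to be tested. The 2 libraries of each group did not overlap for 47 of the 65, against 68.5% of all genes.

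Among the MMPs, 3 were called higher and 4 lower. Mmp9 read 15.3 and 14.7 CPM in OPC anti-miR-ctl and 0.578 and 0.598 CPM in OPC anti-miR-145 (log2 fold change -4.68, SE 0.16, adjusted p = 1.63e-05). The libraries of a group agreed closely, and the inhibitor libraries were more than 20-fold lower. Mmp13 read 0.762 and 2.49 against 0.226 and 0.184 CPM (log2 fold change -2.97, SE 0.64, adjusted p = 0.0149), and its control libraries differed more than 3-fold from each other. Without replicate 2 of the controls its log2 fold change was -1.93, and without replicate 1 it was -3.62. Mmp14 read 4.48 and 3.45 against 2.04 and 2.12 CPM (log2 fold change -0.95, SE 0.21, adjusted p = 0.0147), and Mmp24 was called lower by less (-0.37). Mmp2 went the other way from Mmp9, with 40.4 and 39.7 CPM in the controls and 60.7 and 60.8 CPM with the inhibitor (log2 fold change 0.59, SE 0.08, adjusted p = 0.00223). Mmp11 on ENSRNOG00000054959 read 58.1 and 66.5 against 197 and 174 CPM (log2 fold change 1.56, SE 0.11, adjusted p = 0.000141), and on ENSRNOG00000028344, where the libraries of a group differed widely, its log2 fold change of 1.53 was not called (adjusted p = 0.063). Mmp19 was higher by 0.51 on the log2 scale. Mmp15 and Mmp16, the membrane-type MMPs that were lower in OLs, were not called (log2 fold changes -0.10 and -0.11).

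Of the 12 ADAMs tested, 2 were called higher and 4 lower. Adam19, meltrin beta, a protease that can release neuregulins, read 53.3 and 53.9 CPM in the controls and 118 and 145.3 CPM with the inhibitor (log2 fold change 1.28, SE 0.11, adjusted p = 0.000274). Adam12, its close relative, was lower, with 95.6 and 92.7 against 35.2 and 53.3 CPM (log2 fold change -1.10, SE 0.17, adjusted p = 0.00387). The meltrins thus moved in opposite directions. The protease-inactive members were split in the same way, as Adam11 (21.0 and 17.3 against 7.84 and 8.07 CPM, log2 fold change -1.29, SE 0.13, adjusted p = 0.000492) and Adam22 (-0.85) were lower and Adam23 was higher (0.57). Adam15 was lower by a smaller amount (105 and 87.5 against 77.4 and 60.3 CPM, log2 fold change -0.49, SE 0.15, adjusted p = 0.0454). Adam10 and Adam9 were not called (log2 fold changes 0.25 and 0.07).

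Of the 4 ADAMTSs best known for cutting lecticans, 3 rose. Adamts9 read 16.2 and 18.7 CPM in the controls and 79.8 and 85.1 CPM with the inhibitor (log2 fold change 2.23, SE 0.10, adjusted p = 4.81e-05). Adamts4 read 90.5 and 98.6 against 216 and 209.5 CPM (log2 fold change 1.16, SE 0.09, adjusted p = 0.000168), and Adamts1 read 69.3 and 70.5 against 130 and 139 CPM (log2 fold change 0.93, SE 0.08, adjusted p = 0.000279). For each of the 3, both inhibitor libraries lay above both controls, but with all 5 groups in a single fit Adamts4 (adjusted p = 0.122) and Adamts1 (0.171) were not called. Adamts5 was not called (log2 fold change 0.25, adjusted p = 0.513). Adamts3, a procollagen N-propeptidase, was lower (4.02 and 4.19 against 1.01 and 1.79 CPM, log2 fold change -1.56, SE 0.27, adjusted p = 0.00644), and so were Adamts20 (43.8 and 39.4 against 16.5 and 20.6 CPM, log2 fold change -1.18, SE 0.12, adjusted p = 0.000641) and Adamts10 (-0.34). No ADAMTS-like gene was called, with edgeR or DESeq2, and 1 of the 4 had an unadjusted p under 0.05, Adamtsl2 (log2 fold change -1.21). The lecticans Vcan and Bcan were called lower (-0.89 and -0.44), and Acan and Ncan were not called.

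Timp1 rose from 19.0 and 19.8 CPM in the controls to 100.1 and 83.4 CPM (log2 fold change 2.23, SE 0.12, adjusted p = 6.59e-05). Timp4 was lower (11.3 and 11.9 against 6.21 and 6.19 CPM, log2 fold change -0.92, SE 0.12, adjusted p = 0.00147). Timp2 and Timp3 were not called (log2 fold changes -0.20 and 0.21). The TIMPs therefore did not move as a group.

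Of the 17 serpins tested, 2 were called higher and 6 lower. Serpinb1a read 0.600 and 1.07 CPM in the controls and 3.64 and 2.28 CPM with the inhibitor (log2 fold change 1.83, SE 0.37, adjusted p = 0.0111). Serpinb2 had 146 counts over the control libraries and 2 over the inhibitor libraries, a ratio of 76.1 with a counting interval of 20.7 to 634. Serpinb7 read 7.71 and 7.91 against 2.51 and 1.86 CPM (log2 fold change -1.85, SE 0.19, adjusted p = 0.000562). Serpinb9, an inhibitor of granzyme B, read 6.46 and 6.57 against 2.79 and 3.27 CPM (log2 fold change -1.12, SE 0.16, adjusted p = 0.00232). Serpinb3a and Serpinb8 had 19 and 12 counts over the control libraries and 1 and 2 over the inhibitor libraries, ratios of 19.8 (counting interval 3.15 to 823) and 6.26 (1.39 to 57.5). Serping1 was also called lower (log2 fold change -2.14, SE 0.62, adjusted p = 0.0408). It had 4 and 4 counts in the inhibitor libraries. Like Serpinb2, Serpinb3a and Serpinb8 it met the count filter through the controls alone, so it is lower by selection. Without replicate 2 of OPC anti-miR-145, neither Serping1 (adjusted p = 0.0525) nor Serpinb8 (0.0997) was called, and without its replicate 1 Serpinb8 was not called (0.101). Serpine2 and Serpini1 were not called (log2 fold changes 0.12 and -0.43). The plasminogen activators Plau and Plat were called higher (log2 fold changes 1.87 and 0.68), as was the urokinase receptor Plaur (1.09).

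In the gene order of GRCr8 (RefSeq), Serpinb3a, Serpinb7, Serpinb2 and Serpinb8 lie in this order in a single cluster, with no coding gene between Serpinb7 and Serpinb2 and at most 3 between the other neighbours. All 4 were called lower with the inhibitor. However, only Serpinb7 met the count filter in both groups. Serpinb3a, Serpinb2 and Serpinb8 met it through the control libraries alone, and a gene tested on that basis is lower with the inhibitor by selection. The shared direction therefore cannot show whether the cluster changed as a unit. A second cluster, of Serpinb6a, Serpinb9 and Serpinb1a, was mixed, since Serpinb9 was lower, Serpinb1a higher and Serpinb6a not called (log2 fold change -0.14). Adamts1 and Adamts5, also neighbours without a coding gene between them, differed as given above. Near-identical members of the serpin families can share reads, so their counts are uncertain to that extent.

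Promoter windows, from 250 bases before to 50 bases after the annotated start, were held in RefSeq for 51 of the 69 symbols. They were searched on both strands for the AP-1 motif TGANTCA, known from protease genes such as Mmp13, for a TATA box (TATAAA), a cAMP response element (TGACGTCA) and a STAT element (TTCNNNGAA). The AP-1 letters were found in 4 of the 51 (7.84%) and in 7.33% of 33469 promoters, the TATA box in 13.7% against 14.2%, and the STAT element in 15.7% against 8.87%. The cAMP response element was in 0 of the 51 and in 1.83% of all. Shares of the set count gene symbols and those of all count promoters, so they are not like measures. The AP-1 matches were in Mmp13, Adam19, Serpinb7 and Serpinb2. All of these were called with the inhibitor, Adam19 higher and the others lower. Of the whole set tested, 44.6% were called. Of the genes with a TATA box, Adamts10, Mmp13, Adamts1, Serpinb7 and Serpinb1a were also called, and Adamtsl2 and Adamts7 were not. Of those with the STAT element, Serpinb3a and Adamts4 were called and the others were not. Whether any of these letters had a part in the changes was not tested. No AP-1 match overlapped a match to the other letters. The windows with an AP-1 match are shown in the direction of transcription with the AP-1 letters in capitals. They show where the match lies, close to the start in Mmp13 (first base at -66) and Serpinb7 (-44). It lies farther away in Adam19 (-169) and Serpinb2 (-189). A match is a description of the letters and not a measured site.
Mmp13: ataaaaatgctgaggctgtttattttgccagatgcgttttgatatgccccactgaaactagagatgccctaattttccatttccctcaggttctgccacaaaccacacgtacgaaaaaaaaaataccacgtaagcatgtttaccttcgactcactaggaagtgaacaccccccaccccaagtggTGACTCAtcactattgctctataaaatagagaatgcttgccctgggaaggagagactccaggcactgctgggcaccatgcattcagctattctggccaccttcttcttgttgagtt
Adam19: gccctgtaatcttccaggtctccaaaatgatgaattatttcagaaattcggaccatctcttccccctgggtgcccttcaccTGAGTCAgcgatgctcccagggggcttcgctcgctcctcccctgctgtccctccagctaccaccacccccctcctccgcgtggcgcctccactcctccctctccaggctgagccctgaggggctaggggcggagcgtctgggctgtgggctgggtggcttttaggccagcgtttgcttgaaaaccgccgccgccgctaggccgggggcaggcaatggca
Serpinb7: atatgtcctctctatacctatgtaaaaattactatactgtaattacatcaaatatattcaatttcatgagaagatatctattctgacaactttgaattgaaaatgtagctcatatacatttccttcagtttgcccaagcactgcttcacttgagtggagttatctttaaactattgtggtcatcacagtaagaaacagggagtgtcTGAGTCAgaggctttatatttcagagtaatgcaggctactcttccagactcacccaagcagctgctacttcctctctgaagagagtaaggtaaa
Serpinb2: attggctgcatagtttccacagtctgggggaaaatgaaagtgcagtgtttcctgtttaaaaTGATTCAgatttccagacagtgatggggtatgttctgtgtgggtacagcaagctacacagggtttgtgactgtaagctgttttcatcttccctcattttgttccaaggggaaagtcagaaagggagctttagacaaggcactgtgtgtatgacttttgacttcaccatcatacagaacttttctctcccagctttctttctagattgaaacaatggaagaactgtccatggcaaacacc
The strand was plus for all of them. The window of Mmp13 lies at chr8:12782579-12782878, that of Adam19 at chr10:30992511-30992810, that of Serpinb7 at chr13:23910056-23910355, that of Serpinb2 at chr13:24055771-24056070, all in GRCr8.

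Of 35 companion genes tested with the inhibitor, 14 were called (40%, against 28.1% of all genes), 6 higher and 8 lower. Besides those above, Slpi, a secreted inhibitor of leukocyte elastase, was lower (log2 fold change -4.28), and A2m, alpha-2-macroglobulin, was higher (3.99, from 0 and 0.274 CPM in the controls to 3.02 and 1.17 CPM). Rhbdf2 was lower (-1.65) and Rhbdf1 (0.36) and Tspan14 (0.62) were higher; all of these help ADAM proteases mature. The convertase Pcsk5 (-1.41), Lgi1 (-2.17) and the matrix proteoglycans Spock1 and Spock3 (-0.66 and -0.67) were lower.

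Markers of other cells moved as well. Of 9 microglial markers, 5 were higher and 4 lower in both inhibitor libraries than in both controls. The complement genes C1qa, C1qb and C1qc were among the first and Aif1, Itgam and Tyrobp among the second, and the summed level was 849 to 1067 against 923 to 982 CPM. The astrocyte list summed to 404 to 448 against 624 to 655 CPM, with 1 of 7 higher and 3 lower, and the endothelial list to 2.12 to 2.21 against 10.9 to 11.4 CPM, which in the controls was almost all Flt1. The neuronal list summed to 104 to 106 against 71.0 to 73.2 CPM and the fibroblast or mural list to 3.10 to 4.32 against 2.33 to 3.12 CPM. No marker of these lists was at 0 in both libraries of a group. Their part in the changes of the protease genes was not tested. Adamts10, Serpinb3a, Serpinb8 and Serping1 were not called with DESeq2, which called 25 of the set and 26.4% of all genes. With all 5 groups in a single fit, 17 were called (17.1% of all genes), among them Mmp9, Timp1, Adamts9, Adam19, Serpinb2 and Serpinb7, but not Mmp14 (adjusted p = 0.0769), Adam12 (0.0801) or Timp4 (0.262). In the comparison's own fit the count was 20 without replicate 1 of OPC anti-miR-ctl and 23 without its replicate 2.

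**Figure D3:**
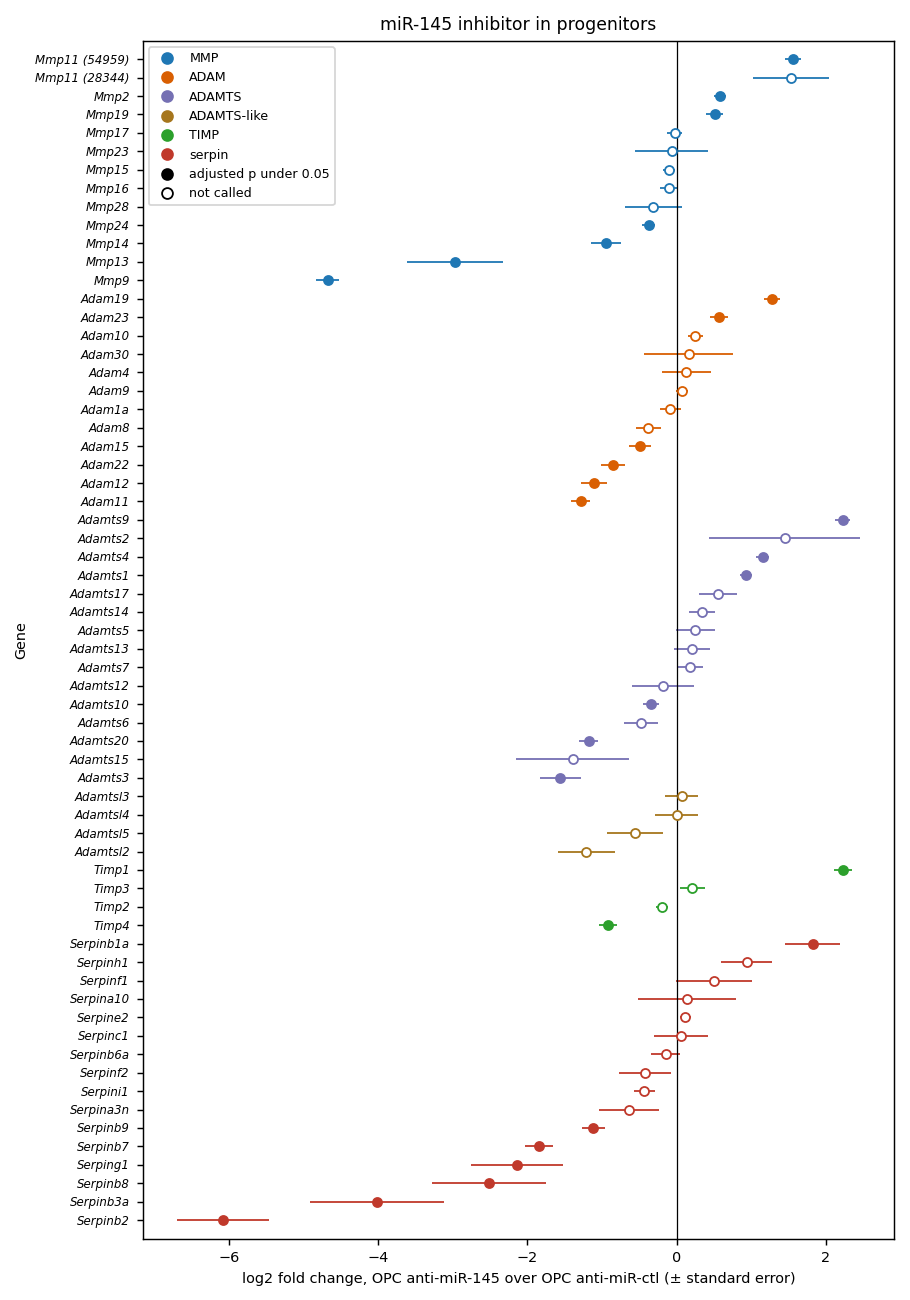
log2 fold change of OPC anti-miR-145 over OPC anti-miR-ctl with its standard error for 64 of the genes tested, ordered within families; filled points were called. Adamts9 and Timp1 lie highest, at 2.23, and Serpinb2 lowest, at -6.09, where the inhibitor libraries held 2 counts.

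The miR-145 mimic was examined in OLs by comparing OL miR-145 with OL miR-ctl. No protease or inhibitor gene passed the edgeR test, which had no term for the replicate number, after adjustment, and neither did any other gene (0 of 15461, 0%), so values below are levels and unadjusted results. At an unadjusted p under 0.05 there were 17 of the 62 protease and inhibitor genes tested (27.4%), 14 higher and 3 lower, against 13.4% of all genes, 8.99% higher and 4.38% lower. DESeq2 called 9 of them, 7 higher and 2 lower, and 4.2% of all genes, 3.46% higher and 0.737% lower. With all 5 groups in a single edgeR fit, 2 were called and 0.511% of all genes. The libraries of the groups did not overlap for 30 of the 62, 24 with miR-145 higher and 6 lower, against 47.3% of all genes, 22.9% higher and 24.4% lower. The median log2 fold change of the 62 was 0.24, and that of all genes tested was -0.01. Mmp13, Adamts19, Serpina10, Serpinb2, Serpinb3a, Serpinb7, Serpine3 and Mmp11 on ENSRNOG00000028344 had too few counts to be tested. The last had 0 counts in both controls and in replicate 1 of OL miR-145 and 2.83 CPM in replicate 2.

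Mmp14 had the smallest p of the MMPs. It read 52.1 and 50.3 CPM in OL miR-ctl and 178 and 135 CPM in OL miR-145, without overlap (log2 fold change 1.61, SE 0.16, adjusted p = 0.158 with edgeR, 1.91e-12 with DESeq2 and 0.0497 with all groups in a single fit). Mmp9 had 84 counts over the controls and 3 over the mimic libraries, a ratio of 28.7 with a counting interval of 9.50 to 142 (adjusted p = 0.158 with edgeR, 0.00419 with DESeq2 and 0.045 in the single fit). These were the 2 genes called in the single fit. Mmp9 met the count filter through the controls alone, so it is lower with the mimic by selection. Mmp2 read 3.29 and 2.05 against 4.63 and 6.27 CPM (log2 fold change 1.03, SE 0.33, adjusted p = 0.3), and Mmp19 read 63.9 and 54.4 against 80.4 and 85.7 CPM (log2 fold change 0.49, SE 0.13, adjusted p = 0.215). Mmp15, Mmp17 and Mmp23 did not overlap either, with log2 fold changes of 0.48, -0.35 and 0.81, and Mmp16 and Mmp24 overlapped.

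Among the ADAMs, Adam15 read 89.4 and 93.7 CPM in the controls and 154 and 156 CPM with the mimic (log2 fold change 0.76, SE 0.10, adjusted p = 0.158 with edgeR and 1.05e-05 with DESeq2). Adam12 read 15.6 and 8.71 against 29.5 and 23.4 CPM (log2 fold change 1.12, SE 0.30, adjusted p = 0.225 and 0.0213), and Adam11 read 743 and 537 against 422 and 351 CPM (log2 fold change -0.72, SE 0.20, adjusted p = 0.236 and 0.0318). None of these overlapped. Adam23 had a log2 fold change of 0.32, also without overlap, and Adam8 one of -0.33, and Adam9, Adam10, Adam19 and Adam22 overlapped.

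Of the lectican-cutting ADAMTSs, Adamts1, Adamts4 and Adamts5 overlapped between the groups, and their OL replicates differed widely. Adamts4 read 246 and 545 CPM in OL miR-ctl and 264 and 533 CPM in OL miR-145 (log2 fold change 0.02, SE 0.47), and Adamts1 read 60.4 and 116 against 52.1 and 113 CPM (-0.09, SE 0.45). In both groups replicate 2 was the higher, as it was for Mbp. Adamts9, whose OL libraries were closer, read 17.9 and 18.4 against 19.4 and 22.3 CPM (log2 fold change 0.21, SE 0.14, adjusted p = 0.546). Adamts12 read 0.778 and 0.920 against 1.90 and 3.06 CPM (log2 fold change 1.55, SE 0.37, adjusted p = 0.199), and Adamts2 read 1.93 and 1.50 against 0.949 and 0.859 CPM (-0.92, SE 0.33, adjusted p = 0.342). Of the ADAMTS-like genes, Adamtsl4 read 6.23 and 5.15 against 9.60 and 11.9 CPM (log2 fold change 0.92, SE 0.21, adjusted p = 0.192 with edgeR and 0.0261 with DESeq2), and Adamtsl5 had a log2 fold change of 0.98 (SE 0.24, adjusted p = 0.205).

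All 4 TIMPs had higher values in both mimic libraries than in both controls, and 3 had an unadjusted p under 0.05. Timp4 read 30.6 and 21.7 CPM in OL miR-ctl and 95.9 and 41.2 CPM in OL miR-145 (log2 fold change 1.39, SE 0.42, adjusted p = 0.266 with edgeR and 0.0146 with DESeq2). Timp3 read 35.7 and 27.7 against 58.7 and 42.0 CPM (log2 fold change 0.67, SE 0.21, adjusted p = 0.293), and Timp1 read 55.0 and 67.0 against 78.3 and 82.8 CPM (0.41, SE 0.14, adjusted p = 0.315). Timp2 read 184 and 195 against 206 and 263 CPM (0.31, SE 0.15, adjusted p = 0.436). For Timp4 the mimic libraries differed more than 2-fold from each other.

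Of the 14 serpins tested, 2 had an unadjusted p under 0.05. Serpinb9 read 3.36 and 3.31 CPM in the controls and 6.24 and 6.22 CPM with the mimic (log2 fold change 0.90, SE 0.21, adjusted p = 0.192 with edgeR and 0.0454 with DESeq2). Serpinh1, the collagen chaperone also known as Hsp47, read 0.577 and 0.889 against 2.16 and 6.49 CPM (log2 fold change 2.57, SE 0.62, adjusted p = 0.198 and 0.00443). Its fold change was 1.56 on the log2 scale without replicate 2 of OL miR-145 and 3.16 without replicate 1. Replicate 2 was also the library with the most collagen RNA, with 16.4 CPM of Col1a1 and 29.9 CPM of Col3a1 against at most 3.05 CPM of either in the other miR-145 and miR-ctl libraries. Serpine2 and Serpini1 overlapped between the groups (log2 fold changes -0.10 and -0.28).

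Markers of other cells differed as well. All 7 astrocyte markers were higher in both OL miR-145 libraries than in both controls, with sums of 8857 to 13015 against 5344 to 6345 CPM. All 5 fibroblast or mural markers found were higher as well, with sums of 10.52 and 54.2 against 3.77 to 4.38 CPM, and so were 3 of 9 microglial markers (364 to 930 against 373 to 561 CPM). The endothelial list summed to 6.22 to 9.83 against 14.8 to 20.5 CPM, with Kdr lower and the other 2 markers found higher. Of 4 neuronal markers 1 was higher and 0 were lower (105 to 136 against 123 to 128 CPM). No marker was at 0 in both libraries of a group. Their part in the levels of Mmp14, the TIMPs, Serpinh1 and the other genes was not tested. Of 33 companion genes tested, 0 were called with edgeR, and 2 were called with DESeq2, against 4.2% of all genes. At an unadjusted p under 0.05 there were 5 (15.2%, against 13.4% of all genes), all higher. These 5 included Plat (118 to 124 against 196 and 272 CPM, log2 fold change 0.96, adjusted p = 0.164), A2m (1.50, adjusted p = 0.195), Cst6 (1.83, adjusted p = 0.224) and Cst3 (0.92, adjusted p = 0.327).

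**Figure D4:**
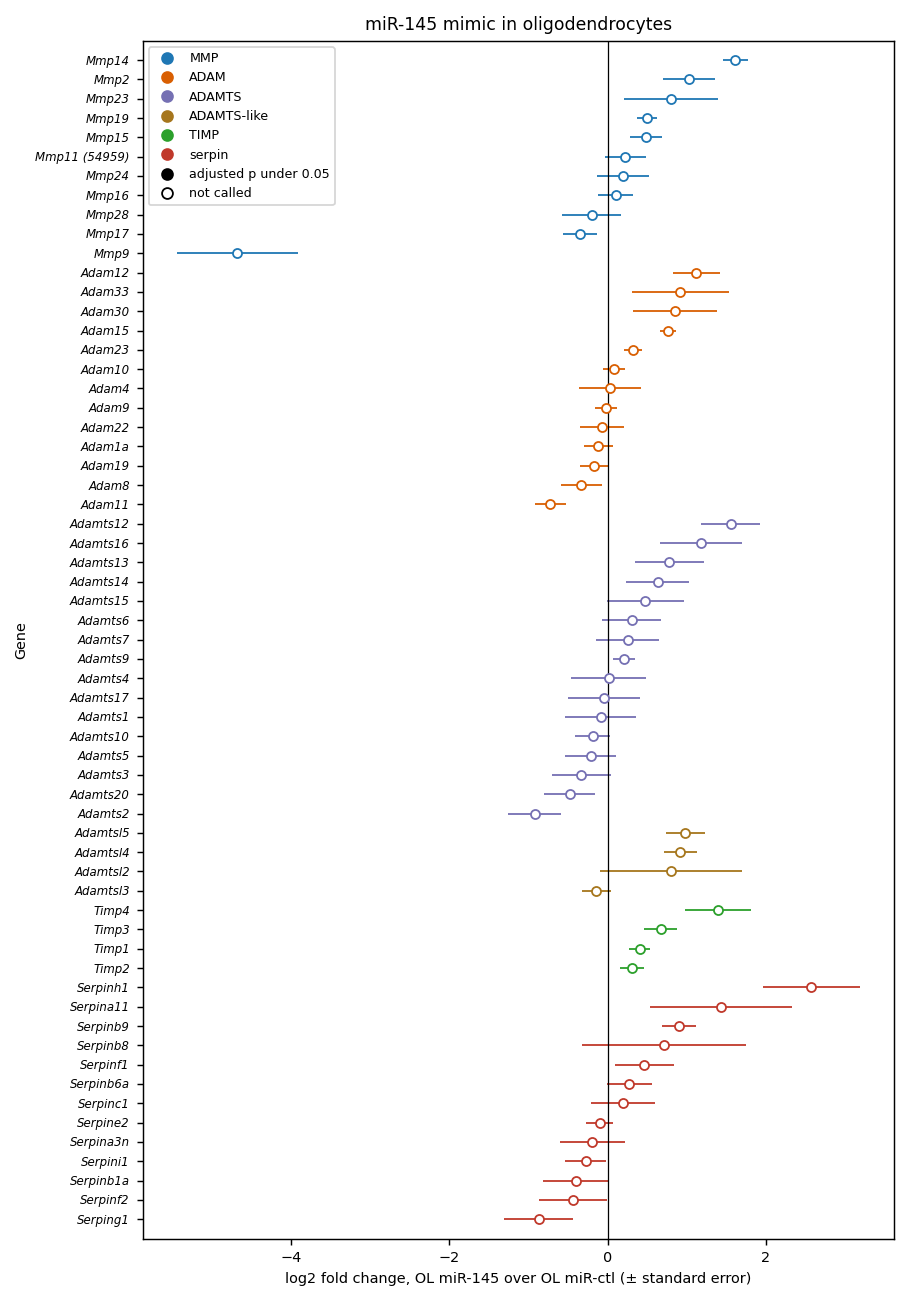
log2 fold change of OL miR-145 over OL miR-ctl with its standard error for 61 of the genes tested, ordered within families; every point is open because no gene was called with edgeR. Mmp9 lies lowest, at -4.67 from 3 counts in the mimic libraries, Serpinh1 highest, at 2.57, and all 4 TIMPs lie above 0.

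With both mimics together, compared with the same OL miR-ctl libraries, no protease or inhibitor gene was called with edgeR and neither was any other gene (0 of 15436, 0%). At an unadjusted p under 0.05 there were 9 of 63 tested, 5 higher and 4 lower, against 6.19% of all genes, 3.96% higher and 2.23% lower. DESeq2 called 3 and 0.687% of all genes. The groups did not overlap for 25 of the 63, against 36.8% of all genes, and the median log2 fold change was 0.11, also with 2 genes at 0 counts in a group set to their bounds, against 0.00 for all genes tested. Mmp14 read 153 and 85.6 CPM with both mimics (log2 fold change 1.23, SE 0.28, adjusted p = 0.8 with edgeR and 0.0108 with DESeq2). Mmp9 had 0 counts against 84 in the controls, at least 29.5-fold lower (adjusted p = 0.789 with edgeR and 0.00188 with DESeq2). Mmp11 on ENSRNOG00000028344 had 181 counts against 0, at least 57.3-fold higher, and was the remaining gene called with DESeq2. Mmp9 met the count filter through the controls alone and this Mmp11 ID through the mimic libraries alone, so their directions were set by selection. Adam15 (133 and 117 CPM, log2 fold change 0.45), Serpinh1 (1.69 and 1.91 CPM, 1.31) and Adamts9 (23.3 and 22.6 CPM, 0.35) lay above the controls, and Serping1 (1.13 and 2.02 CPM, -1.65), Adamts2 (-1.18), Adam11 (337 and 465 CPM, -0.67) and Adam19 (-0.24) lay below them. Of the markers of other cells, 4 of 7 for astrocytes were higher in both libraries (sums of 6377 to 10746 against 5344 to 6345 CPM), as were 3 of 5 for fibroblasts or mural cells (8.27 to 9.89 against 3.77 to 4.38 CPM) and 3 of 9 for microglia (340 to 620 against 373 to 561 CPM). For endothelial cells 1 of 3 was higher and 2 were lower (8.12 to 9.06 against 14.8 to 20.5 CPM), and for neurons 1 of 4 was higher and 1 lower (107 to 124 against 123 to 128 CPM). Their part in these values was not tested.

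Adding miR-219 to miR-145 was examined by comparing both mimics with OL miR-145, whose libraries also entered the comparison with OL miR-ctl. With edgeR 0 of 15501 genes were called (0%). Of the 64 protease and inhibitor genes tested, 5 had an unadjusted p under 0.05, all lower with both mimics, against 1.47% of all genes (1.14% lower), and DESeq2 called 0 of the 64 and 0.0581% of all genes. The 5 were Timp1 (78.3 and 82.8 CPM with miR-145, 59.7 and 62.3 CPM with both, log2 fold change -0.41), Mmp19 (80.4 and 85.7 against 69.0 and 57.6 CPM, -0.40), Adamtsl4 (9.60 and 11.9 against 5.92 and 7.75 CPM, -0.66), Adam15 (154 and 156 against 133 and 117 CPM, -0.32) and Adamtsl5 (4.54 and 4.14 against 3.07 and 2.81 CPM, -0.57). Their adjusted p was 1 with edgeR. With miR-145 against OL miR-ctl, which shares the OL miR-145 libraries, the log2 fold changes of these genes were 0.41, 0.49, 0.92, 0.76 and 0.98. The groups did not overlap for 20 of the 64, against 24.8% of all genes. Of the genes higher with both mimics, those with the smallest p among groups without overlap were Serpina10, Adamtsl3, Adam8, Adam1a and Adamts6, none with an unadjusted p under 0.05.

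The inhibitor in OPCs and the miR-145 mimic in OLs share no libraries, and their values can be set side by side, although stage and time differ between them. Of the 29 genes called with the inhibitor, 25 were tested with the mimic. Of the 25, 10 had opposite signs. Of these, 7 were lower with the inhibitor and had a positive log2 fold change with the mimic. Mmp14 was -0.95 with the inhibitor and 1.61 with the mimic, Adam12 -1.10 and 1.12, Timp4 -0.92 and 1.39, Serpinb9 -1.12 and 0.90, and Adam15 -0.49 and 0.76. Mmp24 (-0.37 and 0.20) and Serpinb8 (-2.52 and 0.71) completed the 7. Serpinb8 was tested with the inhibitor through the controls alone, so its sign there was set by selection. Adam19 (1.28 and -0.17), Adamts1 (0.93 and -0.09) and Serpinb1a (1.83 and -0.40) were the 3 with the converse signs. The remaining genes had the same sign in both, among them Mmp9 (-4.68 and -4.67, the latter from 3 counts in the mimic libraries), Adam11 (-1.29 and -0.72), Timp1 (2.23 and 0.41) and Adamts9 (2.23 and 0.21). The sign of Mmp9 with the mimic and that of Serping1 with the inhibitor were set by selection in the same way. Over the 59 genes tested in both, 26 had opposite signs. The share over all genes was not taken, so these counts do not show whether the set stood apart. The plot of both fold changes places Mmp14, Adam12, Timp4 and Serpinb9 in the upper left and Mmp9 and Adam11 in the lower left.

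**Figure D5:**
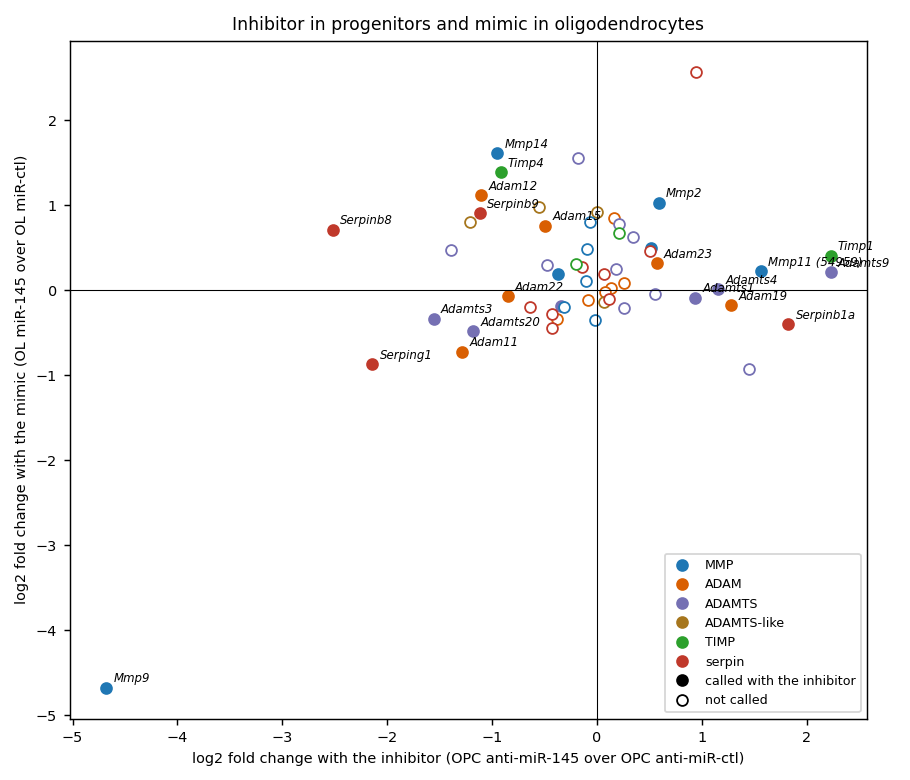
log2 fold change with the inhibitor in OPCs (horizontal axis) and with the miR-145 mimic in OLs (vertical axis) for 58 genes tested in both; filled points were called with the inhibitor, and no point was called with the mimic in edgeR. Mmp14, Timp4, Adam12, Serpinb9 and Adam15 lie at upper left, and Mmp9 lies farthest to the lower left, at -4.68 and -4.67.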

How the data were processed

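The authors assigned reads of stranded mRNA libraries to GENCODE rat transcripts (Rnor6.0) with Salmon 0.12.0 and deposited estimated counts per gene through tximport, without normalization. Counts were rounded, since 16.0% to 17.5% of a library's values were not whole. Their DESeq2 table, which holds their own mean signal, log2 fold changes, scores and p-values, served only for gene symbols. All genes were fitted with edgeR 4.0.16 (TMM, glmQLFit, glmQLFTest) in R 4.3.3 for each of 5 comparisons, using only its 4 libraries, and the standard error is the log2 fold change divided by the square root of F. Alternatives were DESeq2 1.42.0, its size factors within edgeR, no filter or a filter at 20 counts, a replicate block, a fit of all 5 groups together, and leaving out each library. Functions were tested on simulated data. Genes, lists, motifs and tests were chosen with earlier results of these data known. Named genes were those with the largest called changes (or, with none called, the smallest p) among groups without overlap, and members chosen for known roles; others are named with a count they belong to. 2 genes are not reported here, of which 1 is included in the counts of the set. The paper's methods name lentivirus for this experiment, and the labels name mimics.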

Additional observations from a re-analysis of the deposited data

How the results depend on the processing

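In the OL miR-145 comparison, 0 genes of the set were called with edgeR, against 9 with DESeq2, 2 with all 5 groups in a single fit and 17 with a replicate block, the term for the replicate number. With both mimics against miR-ctl the count was 0 against 3 with DESeq2 and 3 with the replicate block, and against OL miR-145 it was 0 against 4 with the replicate block. With the inhibitor it was 29 against 17 with all groups in a single fit. With each library left out in turn, OLs against OPCs gave 27 to 46 calls and the inhibitor 20 to 32. Over all genes, OL miR-145 gave 649 calls with DESeq2, 79 with the single fit and 2272 with the block, and the inhibitor gave 4348 with edgeR, 2657 with the single fit, and 2348 to 7133 with a library left out. The cause was not tested. Same-numbered libraries deviated together by a correlation of 0.40, 0.47 and 0.63 in the OL comparisons, -0.15 in OPCs and 0.07 between stages. The study describes a replicate of primary cells as cultures from an individual mouse, without a definition for rat cells. It does not say whether a number is the same culture in different groups, so the numbers were not taken as pairs. With the OPC numbers crossed, chosen after the data were examined, the block called 31, against 29 as numbered. Counts over all genes are not given here for the block with both mimics or in OPCs. Neither are they for OLs against OPCs with a library left out. The counts of the set under these settings therefore do not show whether it stood apart from other genes. The median log2 fold changes moved by less than the replicate spread in every alternative run. No gene named for its called change or smallest p changed sign. The signs of genes named only for other reasons were not followed across all the alternatives. DESeq2's size factors moved the median of all genes by under 0.1. Precision is limited by 2 libraries a group, and for genes of low counts, such as Serpinb3a and Serpinb8, by depth.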
